A study of Mus musculus with 96 samples.

Results

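The genes of MHC class I antigen presentation were described in single cultured mouse horizontal basal cells (HBCs), the reserve stem cells of the olfactory epithelium, and in their sister pairs. The 10 genes, of the 55487 in the count table, were taken by symbol: B2m, H2-K1, H2-D1, H2-T23, Tap1, Tap2, Tapbp, Psmb8, Psmb9 and Nlrc5. The study collected 96 single cells, which were both daughters of 48 divisions, to ask how sister stem cells differ after division. All cells formed 1 group. They were wild type, from adult mice of 6 to 8 weeks whose olfactory epithelium was taken 2 days after an injection of methimazole, a drug that destroys the mature epithelium, and HBCs were then grown in culture. The labels name neither the animal nor the culture of a cell, so the cells count as 1 sample and every value is given as a description, with no test between cells.

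MHC class I molecules show peptides from inside a cell to CD8 T cells and natural killer cells. A heavy chain (H2-K1 and H2-D1 are the classical ones of the mouse, H2-T23 a nonclassical one) folds with the light chain, beta-2 microglobulin, encoded by B2m. Peptides are cut by the proteasome, whose inducible catalytic subunits include Psmb8 and Psmb9, are pumped into the endoplasmic reticulum by the Tap1 and Tap2 transporter, and are loaded with the help of tapasin, encoded by Tapbp. Nlrc5 is a transactivator of class I genes, and interferon raises many of these genes together in most tissues.

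Each cell was a library of its own with 29.5 to 44.8 M counts on genes (median 36.2 M), and 11403 to 14632 genes were counted per cell. ERCC transcripts, synthetic RNAs added at lysis, took 1.06% to 5.75% of the counts. The labelled cell type was checked against its markers: Trp63, Krt5 and Krt14 were counted in 96 of 96 cells. Of 10 leukocyte markers, 4 were in no cell and 6 were in between 1 and 10 cells, with a summed level of 0 to 21.0 TPM per cell. TPM is a transcript level scaled by gene length and by library size. Markers of the other cell types of the epithelium and of stroma had a summed level of at most 72.5 TPM in any cell, which olfactory neuron genes reached. Among them the endothelial marker Pecam1 was counted in 92 cells, with 10 or more reads in 5, while Cdh5 was in 0. Gap43 was in 22 cells, Gng13 in 16, Pdgfra in 15 and Lgr5 in 14, and the others were in 0 to 7. The 5 markers of class II antigen-presenting cells summed to as much as 103 TPM (median 0), with H2-Ab1 in 26 cells, Cd74 in 4 and Ciita in 1.

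All members but B2m (chromosome 2) and Nlrc5 (chromosome 8) lie on chromosome 17, in the mouse MHC (GRCm38). H2-K1 spans 33996017 to 34000347 on the minus strand, Tapbp 33915899 to 33929292, H2-D1 35262730 to 35267499 and H2-T23 36029773 to 36032855 on the minus strand. Psmb9, Tap1, Psmb8 and Tap2 stand side by side: Psmb9 from 34181987 to 34187764 on the minus strand, Tap1 from 34187553 to 34197225, Psmb8 from 34197721 to 34201454 and Tap2 from 34203527 to 34216321. B2m spans 122147686 to 122153083 and Nlrc5 94434356 to 94527272. Genes with no strand given are on the plus strand.

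The promoters are shown because the members are known for shared control elements. That the classical heavy chains later stood apart from the other members also guided the choice. A link between promoter elements and transcript levels was not tested. RefSeq (GRCm38.p6) gave the 250 bases before the start site for 8 of the 10 members, and not for Tap2 and Nlrc5. These bases were searched on both strands for 5 short motifs: the interferon regulatory factor (IRF) core AANNGAAA, the STAT site TTCNNNGAA, the NF-kB site GGGGATTCC, the CCAAT box CCAAT and the CRE core TGACG. The stretch upstream of H2-K1, chr17:34000348-34000597 on the minus strand, holds no annotated exon and is printed with its NF-kB and IRF core matches in capitals.
H2-K1 upstream: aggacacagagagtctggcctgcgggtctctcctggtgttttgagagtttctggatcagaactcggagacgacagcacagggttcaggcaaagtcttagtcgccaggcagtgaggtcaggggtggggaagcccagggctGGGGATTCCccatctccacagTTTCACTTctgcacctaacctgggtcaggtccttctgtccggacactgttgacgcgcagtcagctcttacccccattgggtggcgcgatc

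The NF-kB and IRF core matches of H2-K1 form a unit of 29 bases, chr17:34000430-34000458. H2-D1 carries the same arrangement at chr17:35262923-35262951, 171 to 143 bases before its RefSeq start site, in a stretch that an exon of another H2-D1 transcript overlaps. The units differ at 1 of 29 bases. Capitals mark the NF-kB site and the IRF core, which is read on the opposite strand.
H2-K1 unit: GGGGATTCCccatctccacagTTTCACTT
H2-D1 unit: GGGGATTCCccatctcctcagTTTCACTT

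H2-K1 and H2-D1 were the only 2 of the 8 members with this exact NF-kB string. Of all 32851 RefSeq promoters of the same length, 0.213% hold it. The bases on both sides of the unit are also alike in H2-K1 and H2-D1, so their 2 matches are not independent. Other forms of the NF-kB site were not searched, so their presence in the other members is not known. The IRF core was found in B2m, H2-D1, H2-K1 and H2-T23, 4 of 8, against 21.3% of promoters. The STAT site was found in Psmb8 alone, against 7.02% of promoters, and it reads the same on both strands. The CCAAT box was in 7 of 8 members (33.8% of promoters) and the CRE core in 5 of 8 (17.8%). Tap1 and Psmb9 share the same CCAAT match and the same CRE core match, so each of these counts holds a shared site for both genes. Windows of 30 bases are shown for 4 members, with the match in capitals: the IRF core of B2m at chr2:122147539-122147568, the STAT site of Psmb8 at chr17:34198088-34198117, and the CRE core that Tap1 (chr17:34187458-34187487) and Psmb9 (chr17:34187457-34187486, minus strand) share between their divergent starts. A match is a run of letters and not a measured binding site.
B2m IRF core: taagaacatgaAACTGAAAatgggaaagtc
Psmb8 STAT site: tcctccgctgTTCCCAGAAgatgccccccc
Tap1 CRE core: cccagagacaggTGACGacagagggtcctg
Psmb9 CRE core: aggaccctctgtCGTCAcctgtctctgggc

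HBCs carried high levels of H2-K1, H2-D1, B2m and Tapbp and a lower level of H2-T23. Most cells held few or no reads of Tap1, Tap2, Psmb8, Psmb9 and Nlrc5. B2m, H2-K1, H2-D1 and Tapbp were counted in 96 of 96 cells, H2-T23 in 88, Tap2 in 48, Tap1 in 47, Psmb8 in 17, Psmb9 in 14 and Nlrc5 in 4. No cell held reads of all 10 genes, also not at a minimum of 10 reads or of 1 TPM. The summed level of the 10 genes ran from 559 to 2853 TPM (median 1292).

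**Figure D1:**
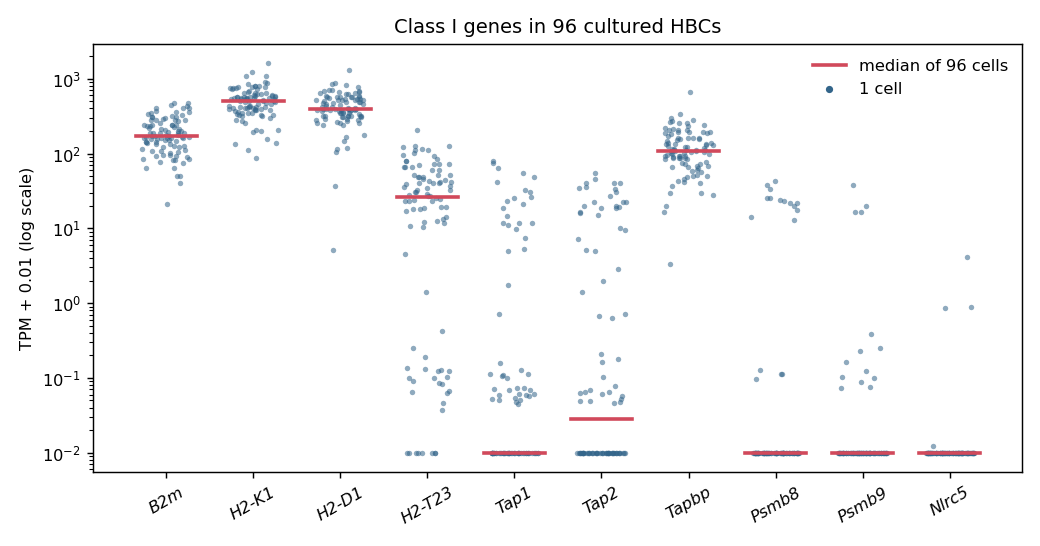
Level of each gene in TPM with 0.01 added (log scale) in the 96 cells; a point is 1 cell and the red line is the median. H2-K1, H2-D1, B2m and Tapbp sit in a band between medians of 109 and 505 TPM, while Tap1, Psmb8, Psmb9 and Nlrc5 have medians of 0.

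The heavy chain H2-K1 had the highest median level, 505 TPM (quartiles 375 and 622, n = 96 cells), with counts from 3563 through a median of 17152.5 to 49201 reads per cell. H2-D1 followed at 397 TPM (315 and 545), with counts of 244, 18154 and 71502. H2-K1 exceeded H2-D1 in 60 of 96 cells, so these neighbours overlapped. With CPM (counts scaled to the library total) per kilobase of exon in place of the deposited TPM their order turned: H2-D1 had a median of 191 and H2-K1 of 165.

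The light chain B2m was lower, 170 TPM (quartiles 122 and 260), with counts of 423, 3267 and 9167, and was exceeded by H2-D1 in 85 of 96 cells. The sum of H2-K1, H2-D1 and H2-T23 over B2m, in TPM, had a median of 5.56 (range 0.393 to 28.1), and lay above 1 in 94 of 96 cells. Heavy chain transcript thus outnumbered light chain transcript in nearly every cell on this scale. Sisters shared this ratio in part, with an intraclass correlation of 0.56 over 48 pairs on the log scale, a value that is 1 where sisters are alike and near 0 where sisters are no more alike than other cells.

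The nonclassical H2-T23, the mouse Qa-1 heavy chain that natural killer cell receptors read, had an SD of log2(CPM + 1) of 2.46 over cells, beside 0.69 for H2-K1 and 1.04 for Tapbp. Its counts ran from 0 through a median of 851.5 to 6954 reads, and its median level was 26.1 TPM (quartiles 0.166 and 51.4). Of 96 cells, 71 held 10 or more reads, 17 held 1 to 9 and 8 held none. The cells thus fell into a high range and a range near 0.

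Tapasin was counted in every cell, with 169, 6486.5 and 44969 reads and a median level of 109 TPM (quartiles 72.1 and 161). B2m exceeded Tapbp in 66 of 96 cells and Tapbp exceeded H2-T23 in 84. Tapbp shares 904 bases of exon with the antisense gene Gm19412 and 149 with Zbtb22, and 14.0% of the 100-base windows of its main transcript also occur in other genes, chiefly Gm19412. The strand setting of the counting is not given in the sources used here, so reads of Tapbp and Gm19412 could not be told apart.

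Both subunits of the peptide transporter were sparse. Tap1 had counts of 0, 0 and 5540 and Tap2 of 0, 2 and 3899. Tap1 reached 10 reads in 26 cells and had 1 to 9 in 21; Tap2 did so in 35 and 13. Where counted, Tap1 had a median of 59 reads and Tap2 of 423. Both were counted in 18 cells, Tap1 alone in 29, Tap2 alone in 30 and neither in 19, so Tap2 was in 38.3% of the cells with Tap1 and in 61.2% of those without. At 10 or more reads the order turned, 46.2% against 32.9%. The protein works as a pair of both subunits.

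The inducible proteasome subunits were rarer still. Psmb8, which takes the place of Psmb5 in the immunoproteasome, was counted in 17 of 96 cells (17.7%, exact binomial 95% interval 10.7% to 26.8%), with a highest count of 1677. Psmb9, the counterpart of Psmb6, was counted in 14 (14.6%, 8.21% to 23.3%), with a highest count of 2037, and reached 10 reads in 5. These intervals, and those below, cover counting error only. Their constitutive counterparts were in every cell, with medians of 643 TPM for Psmb5 and 855 TPM for Psmb6. Psmb8 made up at most 7.29% of Psmb8 and Psmb5 together in any cell, and Psmb9 at most 5.88% of Psmb9 and Psmb6.

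The remaining immunoproteasome subunit, Psmb10, which replaces Psmb7 and is not a member, went another way. It was counted in 75 cells, with a median of 27.5 TPM beside 184 TPM for Psmb7, and was 12.6% of the sum of both (median; highest 53.2%), above 10% in 53 of 96 cells. All 11 other subunits of the 20S core were counted in every cell. A class I score was taken as the mean standardized level of the members counted widely enough to pass the filter on low counts. Of the 3 constitutive catalytic subunits, the 11 others, Psmb10 and the PA28 genes, none reached a rho of 0.3 with it in either direction. The median rho was -0.22 over the 3 constitutive subunits and -0.14 over the 11 others. Only Psmb5 (0.073), Psmb3 (0.020), Psme1 (0.16) and Psme2 (0.029) were above 0.

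**Figure D2:**
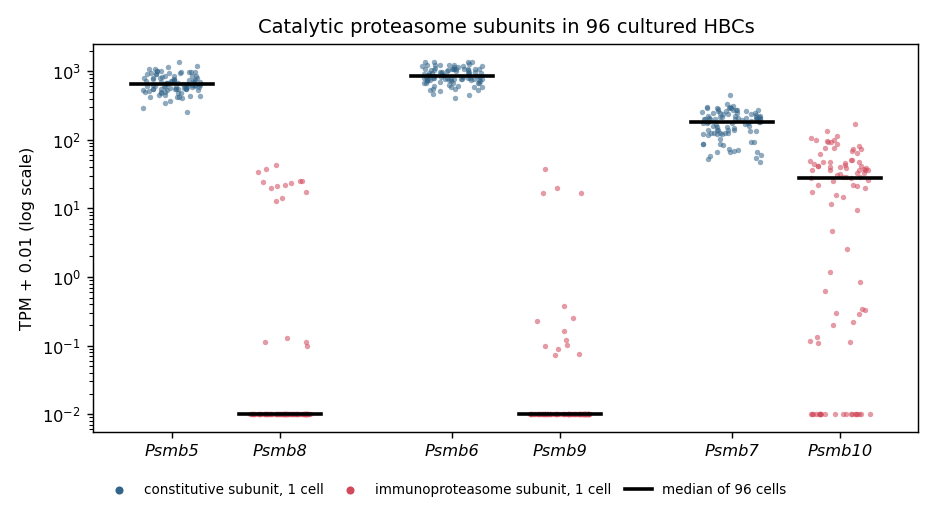
Level in TPM with 0.01 added (log scale) of each constitutive catalytic subunit (blue) beside its immunoproteasome counterpart (red) in 96 cells; black lines are medians. Psmb5, Psmb6 and Psmb7 were in every cell, Psmb8 and Psmb9 lie at 0 in most, and Psmb10 spreads from 0 to 170 TPM.

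Psmb9 and Tap1 overlap by 212 bases of exon on opposite strands, so a few reads could belong to either. Of the 9 cells with 1 to 9 Psmb9 reads, 7 had Tap1 reads, of the 5 cells with 10 or more Psmb9 reads 2 had, and of the 82 cells without Psmb9 38 had. Psmb8 likewise shares 498 exon bases with the antisense gene Gm20496. How far these overlaps enter the low counts was not tested.

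Nlrc5 was counted in 4 of 96 cells (4.17%, 1.15% to 10.3%), with 660 and 136 reads in the daughters of pair 27, 128 reads in daughter 1 of pair 11 and 1 read in daughter 2 of pair 26. Its highest level was 4.15 TPM. The transcript of this transactivator was at 0 in the other 92 cells. Among them were daughter 1 of pair 4, with the highest H2-D1 count of 71502, and daughter 1 of pair 29, with the lowest of 244. A relation to class I level was not tested.

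The 5 sparse genes, Tap1, Tap2, Psmb8, Psmb9 and Nlrc5, were counted per cell. Of 96 cells, 15 held none of them, 44 held 1, 26 held 2, 10 held 3, 1 held 4 and 0 held all 5. At 10 or more reads, 38 cells held none, 39 held 1, 14 held 2 and 5 held 3, and no cell held more. Each of the 5 cells with 3 held Tap1 and Tap2. In daughter 1 of pair 10, daughter 1 of pair 17 and daughter 2 of pair 22 the other gene was Psmb8 (529, 469 and 772 reads), in daughter 1 of pair 27 it was Nlrc5 (136) and in daughter 1 of pair 35 it was Psmb9 (12).

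Sisters were compared on counts scaled to the ERCC spike-in, with 1 added, at the ratio of 1.5 that the study uses between daughters. The classical chains differed least: H2-D1 reached 1.5 in 20 of 48 pairs, H2-K1 in 22 and B2m in 23, with median ratios of 1.43, 1.46 and 1.47. Tapbp reached it in 27 pairs (median ratio 1.57) and H2-T23 in 40 (5.40). Of the sparse genes, Tap1 reached it in 31 pairs, Tap2 in 32, Psmb8 in 16, Psmb9 in 13 and Nlrc5 in 3, where a pair with no reads in either daughter counts as below the ratio.

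The median over the 10 members was 22.5 pairs, and over the 8 past a filter on low counts 25, beside 33 over the 14463 genes with 10 or more reads in at least 10% of cells, and 28 over the 4631 genes counted in every cell. Over all genes with any count the median was 12, below that of the members. At least 24 of 48 pairs at the ratio were seen for 4 of the 8 members past that filter and for 79.5% of all genes past it. The 22 spike-in transcripts counted in every cell reached 1.5 in 0 to 34 pairs (median 10.5). These transcripts also set the scaling, which holds their ratios near 1, and were not matched to the members in abundance, so error of capture and amplification was not separated out for the members.

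**Figure D3:**
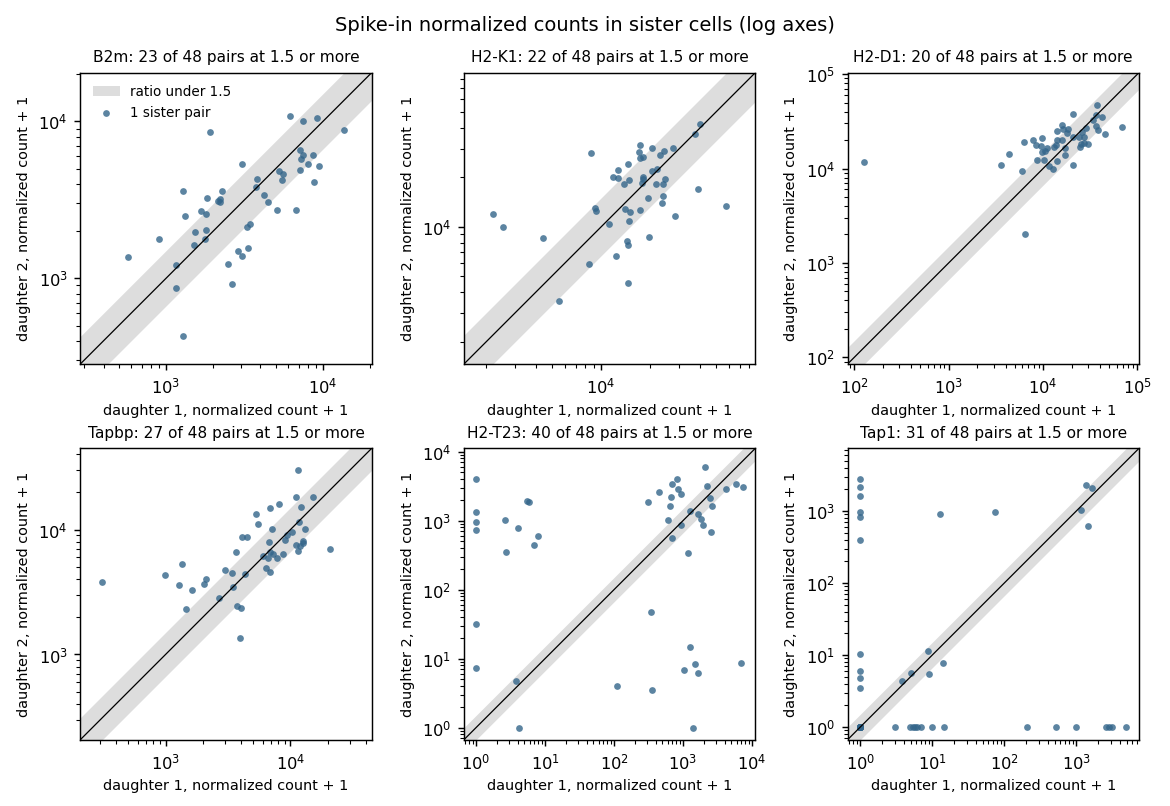
Spike-in normalized counts with 1 added in daughter 1 against daughter 2 (log axes) for 6 genes; a point is 1 of 48 sister pairs, the line is equality and the grey band holds ratios under 1.5. B2m, H2-K1, H2-D1 and Tapbp lie along the line, with single pairs far off it, while H2-T23 and Tap1 have many pairs with 1 daughter near 0.

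B2m was the most alike in sisters among the members counted in every cell, with an intraclass correlation of 0.63 on log2(CPM + 1). The values were 0.50 for Tapbp, 0.47 for H2-K1 and 0.31 for H2-D1. All 4 reached 0.3, which 29.7% of the 4631 genes counted in every cell and 17.8% of the 14463 genes past the filter did; 4 of the 8 members past the filter did. Only 2.83% of the genes counted in every cell had a value as high as B2m. The median of the 4 was 0.49, beside 0.19 over the genes counted in every cell.

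The files number the cells in 12 sets of 8, and both daughters of a pair are in the same set. With set means removed the value was 0.56 for B2m, 0.42 for Tapbp, 0.27 for H2-K1 and 0.059 for H2-D1, and the median over all genes past the filter went from 0.11 to -0.038. The median CPM of a set ran from 67.7 to 134 for B2m, 106 to 268 for Tapbp, 275 to 750 for H2-K1 and 358 to 667 for H2-D1. What a set stands for is not labelled, so likeness of sisters and of cells of a set cannot be told apart. H2-K1 and H2-D1 were below 0.3 with set means removed, and B2m and Tapbp were not. Removing the means of such small sets can by itself lower the value, and how far it did so was not tested.

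In B2m the lowest cell, daughter 2 of pair 48 with 423 reads, had a sister with 1291, and the highest, daughter 1 of pair 17 with 9167, had a sister with 9122. Both extreme cells had a sister on the same side of the median of 3267. The widest pair was 22, with 1424 and 5622 reads and a ratio of 4.49. Leaving out any 1 pair kept the B2m value between 0.58 and 0.67, that of H2-K1 between 0.43 and 0.50 and that of Tapbp between 0.48 and 0.55.

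For H2-D1 single pairs decided the value. Daughter 1 of pair 29 had 244 reads and its sister 18056, a ratio of 93.1 after scaling; without this pair the intraclass correlation was 0.56. In pair 8 both daughters were low, with 5127 and 1646 reads; without this pair it was 0.21. The counts of 244 and 1646 were the lowest of all 96 cells.

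The cell with the lowest H2-D1 count had a depth near that of its sister. Daughter 1 of pair 29 had 33.0 M counts and 11965 genes, beside 34.5 M and 12464 in its sister. Its B2m count was 2956 (sister 2995) and its Tapbp count 16872 (sister 9681), while H2-K1 was at 4904 (sister 15205), H2-T23 at 0 (sister 1096) and Tap2 at 0 (sister 2191). All 3 heavy chains among the members, and Tap2, were thus lower than in the sister. H2-Q1, H2-Q10 and H2-Q7 were also at 0 in this cell, and at 123, 50 and 23 reads in the sister.

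In H2-K1 the widest pair was pair 1, with 3563 and 13888 reads (ratio 5.45), and the highest count, 49201 in daughter 2 of pair 14, stood beside 29554. In Tapbp daughter 1 of pair 23 had 169 reads and its sister 3639, a ratio of 12.2, and daughter 2 of pair 4 had 44969 beside 11946. The widest pairs of B2m, H2-K1, H2-D1 and Tapbp were 4 different divisions.

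In pairs where a sparse gene was counted, it was mostly in 1 daughter. How far low detection alone gives such a split was not tested. Tap1 was in both daughters of 11 pairs, in 1 of 25 and in neither of 12; Tap2 in 13, 22 and 13. Psmb8 was in both daughters of 1 pair and in 1 of 15, Psmb9 in 1 and 12, and Nlrc5 in 1 and 2. H2-T23 was in both daughters of 40 pairs and in 1 of 8. Their intraclass correlations were 0.14 for H2-T23, 0.13 for Tap1, 0.010 for Tap2, -0.14 for Psmb8 and -0.011 for Psmb9. The value of 0.68 for Nlrc5 rested on pair 27 and was -0.00042 without it.

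**Figure D4:**
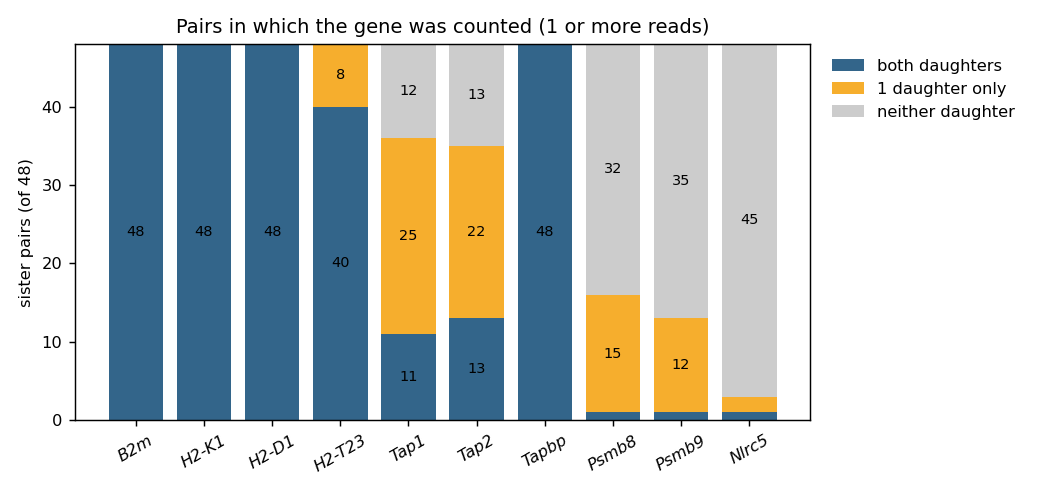
Number of the 48 sister pairs in which each gene had 1 or more reads in both daughters (blue), in 1 daughter only (orange) or in neither (grey). B2m, H2-K1, H2-D1 and Tapbp fill all 48 pairs, and Tap1 is in 1 daughter only in 25 and Tap2 in 22.

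The median Spearman rho over the 45 combinations of 2 members across 96 cells was 0.010, and between members and other genes it was 0.0050. Many of these combinations hold a gene at 0 in most cells; over the 4 members counted in every cell the median was 0.11. H2-K1 and H2-D1 stood highest, with a rho of 0.39 (Pearson 0.47 on the log scale), the 1 of 28 combinations of members past the filter that reached 0.3, as 0.377% of combinations of a member and another gene did. The correlation was 0.35 with set means removed, 0.37 without the cell lowest in H2-D1, and 0.61 on spike-in normalized counts, where RNA content per cell enters both genes. Cells share scaling to 1 total, so rho carries no p-value here.

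The same was seen between sisters. In differences between daughters, the median rho over the 45 combinations was 0.020 (48 pairs), and that of H2-K1 and H2-D1 was 0.36. The daughter with more H2-K1 thus tended to have more H2-D1. B2m and Tapbp had the lowest rho of all combinations, -0.23 across cells and -0.26 in sister differences, and B2m with its partners H2-K1 and H2-D1 was at -0.019 and 0.053. The main transcripts of H2-K1 and H2-D1 share no exact window of 100 bases. Shorter or inexact matches were not searched, and how many reads were assigned to the wrong gene was not tested.

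**Figure D5:**
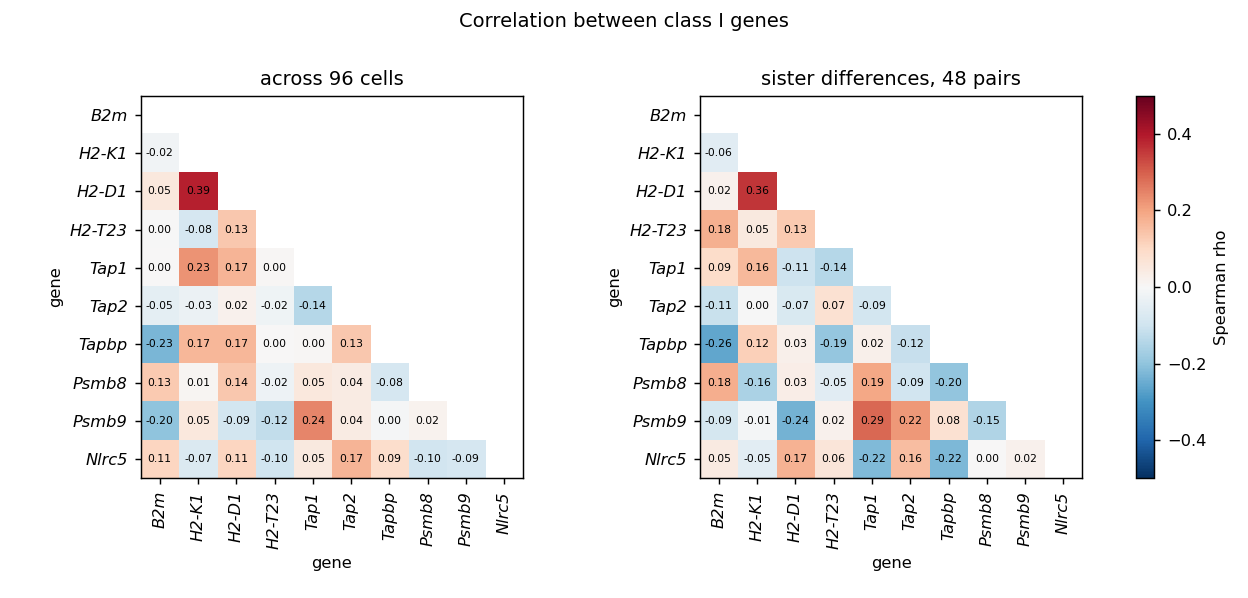
Spearman rho of each combination of 2 members across 96 cells (left) and in differences between daughters over 48 pairs (right); colour runs from -0.5 (blue) to 0.5 (red). H2-K1 with H2-D1 stands out at 0.39 and 0.36, and the other squares lie between -0.26 and 0.29.

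H2-D1 followed other class I heavy chain genes more closely than any member. Its rho was 0.82 with H2-Q1 and 0.64 with H2-Q10, whose median levels were 2.00 and 0.048 TPM beside 397 TPM for H2-D1. H2-D1 and H2-Q1 share 85 of the 2003 windows of 100 bases of the main H2-D1 transcript, so reads of H2-D1 that were assigned to H2-Q1 cannot be told apart from H2-Q1 transcript. H2-T23 shares 46 windows with H2-D1, and their rho was 0.13. The handling of reads with several matches is not given in the sources used here.

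For the other members the highest values with any gene lay between 0.37 and 0.52. The genes nearest to H2-K1 were Stk38 (0.41) and Slc39a7 (0.40), to B2m Procr (0.42) and Ecm1 (0.41), and to Tapbp Gm38056 (0.50) and Akr1b3 (0.49). For H2-T23 they were Slc38a7 (0.37) and Cplane2 (0.35), for Tap1 Cdc42se2 (0.42) and Creld1 (0.40), and for Tap2 Noa1 (0.41) and Cldn12 (0.41). Psmb8 was nearest to Bmp2 and 7330423F06Rik (0.38 each), Psmb9 to Dync1li2 (0.37), and Nlrc5, with 4 counted cells, to A130014A01Rik (0.52) and Fcamr (0.50). In sparse counts such values are no finding.

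A class I score, the mean standardized level of the 8 members past the filter, was set against all other genes. A rho of 0.3 or more was reached by 0.63% of 14455 genes. Among the 10 highest were H2-Q10 (0.47), Snx32, Cep131, Ctsd, Tcirg1 and H2-Q1 (0.44 to 0.43), Ctsb (0.41), Grn (0.39) and Nanos1 (0.38). H2-Q10 and H2-Q1 are the genes nearest to H2-D1, which is part of the score. Ctsd and Ctsb encode lysosomal cathepsins, Tcirg1 a subunit of the vacuolar proton pump and Grn the lysosomal protein progranulin. In sister differences Ctsd, Tcirg1, Ctsb and Grn were at 0.13, 0.22, -0.034 and 0.20. The 5 lowest were Rpl35a (-0.48), Rps15 (-0.47), Rpl4 (-0.46), Cnih4 and Ppa1 (-0.45 each), the first 3 of which encode ribosomal proteins. In sister differences these 3 were at -0.10, 0.048 and 0.016. The score had a rho of 0.26 with the number of genes counted per cell, the part of which in these values was not tested.

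Of 19 other class I and class I-like heavy chain genes, 16 were counted in some cell and 10 passed the filter. H2-Q10 and H2-Q1 reached a rho of 0.3 with the score, and H2-Q7 (0.29, 80 cells) and H2-Q2 (0.21, 39 cells) came next. The score holds H2-D1, whose own rho was 0.82 with H2-Q1, 0.64 with H2-Q10 and 0.60 with H2-Q7. How far reads of H2-D1 assigned to these genes enter the values was not tested. The highest median in this list, 7.02 TPM, was that of Mr1, which shows microbial metabolites to innate-like T cells and was named after its values were seen; it was counted in 87 cells.

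The general folding machinery that class I uses was present throughout. Of 9 peptide loading and chaperone genes, 7 were in every cell, and Calr, Canx, Pdia3 and Hspa5 had medians of 365, 414, 475 and 419 TPM. The first 3 encode calreticulin, calnexin and ERp57, which hold the heavy chain during loading. Erap1, which trims peptides and is itself raised by interferon, was in 69 cells (1.03 TPM), and Tapbpl, the tapasin-related editor, in 46. None of the 9 reached a rho of 0.3 with the score; the highest were Prkcsh (0.10), Erap1 (0.091), Calr (0.068) and Tapbpl (0.030). The PA28 genes Psme1 and Psme2, which open the proteasome, were in 93 and 96 cells at 37.8 and 126 TPM.

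Interferon genes were read beside the members because interferon raises class I expression. Transcripts of 6 interferon ligands were in 0 to 2 cells each: Ifng had 2 cells with at most 1 read, and Ifne was in no cell, which allows a share of up to 3.125% of cells with a read. Of the receptor genes, Ifngr2 was in 95 cells, Ifnar1 in 92, Ifngr1 in 89, Il10rb in 81 and Ifnar2 in 76, while Ifnlr1, the chain specific to the lambda interferon receptor, was in 30 (median 0 TPM). Irf1, a transcription factor that interferon induces, was in 60 cells (0.117 TPM). None of the 16 genes of this list reached a rho of 0.3 with the score; Ifngr1 was highest (0.20), then Socs3 (0.18), Irf9 (0.14) and Stat2 (0.11). Jak1, a kinase that interferon receptors use and that was counted in all 96 cells, had the lowest, -0.31.

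Of 34 interferon-stimulated genes, 7 were in no cell, 16 were in 1 to 10 cells and 6 were in more than 48 cells. Isg15, Ifit1 and Mx1, which rise steeply under interferon, were in 2 cells each, and Ifit3 and Cxcl9 in none. Ifitm3 was in all 96 cells at 874 TPM, Ifi35 in 94 at 65.7 TPM and Bst2 in 66 at 15.7 TPM; these genes were named after their values were seen. None of the 34 reached a rho of 0.3 with the score; Usp18 (0.23, 8 cells), Isg15 (0.22), Ifi35 (0.21) and Ifit1 (0.21) were highest. The summed level of the 34 genes had a median of 1030 TPM (410 to 3580), to which Ifitm3 gave the most.

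Genes of factors known to bind class I promoters were broadly counted. Of 10, 9 were in more than 48 cells, and Rela, Nfyb and Creb1 were in all 96. Rfx5, Rfxap and Rfxank, the subunits of the RFX complex that Nlrc5 works with, were in 40, 60 and 94 cells. The highest rho with the score were those of Nfya (0.18), Rela (0.16), Rfxap (0.051) and Rfxank (0.0013), and none reached 0.3.

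The class II pathway, which presents peptides from outside the cell, was counted in few cells. Its transactivator Ciita was in 1 cell with 6 reads and the invariant chain Cd74 in 4, while H2-Ab1 was in 26 cells and H2-DMa in 40. The correlation with the score was 0.17 for H2-Ab1, 0.16 for H2-DMa and 0.16 for Ciita. Among ligands of natural killer and T cell receptors, Cd274, which encodes PD-L1, was in 7 cells and Pdcd1lg2 in none. The NKG2D ligand genes H60c, Raet1e and Raet1d were in 41, 33 and 27 cells, and Ulbp1, of the same group, in 18. In H60c and Ulbp1 the rho with the score was 0.19 and -0.088.

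State genes of the HBCs had a low rho with the class I score. It was 0.21 for Krt5, 0.026 for Krt14 and -0.017 for Trp63 among basal genes, and 0.069 to -0.038 for the wound-response keratins Krt6a, Krt6b, Krt17 and Krt16. The cycling genes Cdk1, Top2a, Mki67 and Cdc20 were at -0.068, -0.098, -0.13 and -0.15, and the squamous genes Sprr1a, Ivl, Tgm1 and Cnfn at 0.13, 0.13, 0.091 and 0.077. None of these reached 0.3 in either direction.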

How the data were processed

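Both daughters of 48 dividing cells were picked by hand, lysed with ERCC RNA, captured on oligo-dT and amplified by the G&T-seq protocol. Per the study's methods and the submitters' notes, the authors used Trimmomatic 0.39 for trimming and STAR 2.7.11a for alignment to GRCm38 plus the ERCC sequences, keeping pairs, and StringTie 2.2.1 for values per gene. The deposited counts are whole numbers per gene and cell, not normalized; the deposited TPM values are scaled by length and library size with ERCC included. Reads carry no molecular identifiers, so amplification copies are counted.

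From the counts, size factors were the median of ratios over 22 ERCC transcripts counted in every cell, and CPM used the counts on genes. The filter was 10 or more reads in at least 10% of cells. Correlations are Spearman's on CPM, and the score is the mean standardized log2 value. With 1 group and no labelled animal or culture, no test was run. Values were computed with Python 3.11.15, numpy 2.4.6 and pandas 2.3.3, by code tested on simulated data. Rows of 1 gene ID in a TPM file were summed. Gene coordinates and overlaps are from GENCODE of the same build.

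The members and lists were chosen with earlier results of these data known. Genes named are every member, up to 4 per list by rho with the score, the 10 highest and 5 lowest by that rho, and the 2 nearest each member; other names are added for their role or detection. Some genes that this rule names are not reported here. The limits of 24 pairs and of 0.3 for the intraclass correlation, the genes counted in every cell as background, the counts of genes found together and the ratios within a cell were chosen after seeing the data.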

Additional observations from a re-analysis of the deposited data

How the results depend on the processing

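The number of cells with all members was 0 at 1 read, at 10 reads and at 1 TPM. The median over members of pairs at the ratio was 12.5 at a cutoff of 2 in place of 1.5 (27 over all genes), and 19 to 23 under the other scalings and additions, close to 22.5. The median over all genes, 33 past the filter, was 12 with no filter on low counts, which turned the order of members and all genes. The median intraclass correlation of 0.23 was 0.051 with set means removed, a step that lowered the median over all genes too, and 0.49 over the 4 members counted in every cell, a restriction added after seeing the data; other alternatives gave 0.21 to 0.27. Over all 10 members and all scalings run, the median rho lay between 0.010 and 0.057 across cells and between -0.0094 and 0.027 in sister differences. With restrictions added after seeing the data, it was 0.0076 and 0.0093 over the 8 members past the filter, and 0.11 and 0.024 over the 4 members counted in every cell. Among single genes, H2-D1 reached the ratio in 13 pairs when scaled to library total in place of 20. With 10 added, Psmb9 reached it in 7 pairs in place of 13 and Tap1 in 22 in place of 31 (23 on TPM). At a cutoff of 2, B2m, H2-K1, H2-D1 and Tapbp reached it in 10, 8, 9 and 12 pairs. No paired analysis between groups was possible, because all cells form 1 group and no groups share replicate numbers. Sister pairs were compared within this group. Counts of a few reads at 29.5 to 44.8 M counts per cell, and zeros, do not show that a transcript was absent.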
